A study of Mus musculus with 32 samples.

Results

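Sorted interfollicular epidermis was compared with anagen hair follicles in 6 of the 32 mouse skin and organoid libraries of the study. The 3 epidermis libraries held cells taken from the epidermis between the follicles and sorted for 2 surface proteins, Itga6 (an integrin subunit of basal keratinocytes) and Sca1 (the product of Ly6a). The 3 follicle libraries held hair follicles in anagen, the phase in which hair grows. The labels do not say how much of each follicle was taken. A further 3 libraries of mixed follicles, from anagen and telogen (the resting phase), are given beside them. All 9 came from skin of strain Bl/6 that had not been cultured, with no treatment named. Age, sex and body site are not given in the labels, nor whether replicates were separate animals. The p-values therefore reflect how far libraries spread, and part of that may be technical. That spread was estimated from 17 libraries, which also held organoids cultured with forskolin and Fgf1. The sort kept cells on a basal surface marker, while no sort is named for the follicles, whose libraries held RNA of differentiated layers too. In bulk samples fewer cells of a type and less RNA per cell cannot be told apart.

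Transcripts were counted by CEL-seq2, which reads the 3′ ends of polyadenylated RNA. The sorted epidermis libraries held 469839, 739531 and 540576 counts and the anagen follicle libraries 2057589, 1520797 and 1949028, so low values are least certain in epidermis. Between 11028 and 11751 genes were detected per epidermis library and between 13351 and 14187 per anagen library. Spearman correlation between replicates was 0.917 to 0.933 in epidermis. In anagen follicles it was 0.941 between replicates 1 and 2, and 0.868 and 0.903 between replicate 3 and each of the others, so replicate 3 stood apart. Each epidermis table lists its own set of genes and the 3 anagen tables share another, and the effects of table and tissue cannot be told apart. A gene that a table does not list was taken as 0. Gapdh, a glycolytic enzyme gene, was near 0 in both groups (17.3, 5.28 and 9.86 against 2.82, 4.22 and 0.896 CPM) but at 3308, 4309.6 and 5171 CPM in mixed follicles, a difference between tables that a comparison of the first 2 groups does not show.

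Epidermis and hair follicle are built by keratinocytes that share a basal programme and then part. Basal cells make keratins 5 and 14 and hold on to the basement membrane through hemidesmosomes. In the growing follicle, matrix cells at the base divide and differentiate into the inner root sheath, which moulds the hair, and into the hair shaft, whose keratins are packed with keratin-associated proteins. Krt15 and Col17a1 mark basal cells, and Krt25 and Krt71, a pair of keratins, mark the inner root sheath.

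These markers fitted the labels. Krt15 had 7787, 8169 and 7296 CPM in sorted epidermis, against 181, 102 and 22.4 CPM in anagen follicles (log2 fold change 6.24, SE 1.45, adjusted p = 0.003). Col17a1, the collagen of the hemidesmosome, had 2414, 3092 and 1708 CPM in sorted epidermis, against 84.2, 59.1 and 9.86 CPM in anagen follicles (log2 fold change 5.54, SE 0.71, adjusted p = 2.35e-05). In both cases every epidermis library lay above every anagen library, and anagen replicate 3 was the lowest. Krt25 had no count in the 3 epidermis libraries and 14099, 20465 and 20699 CPM in anagen follicles, at least 14072-fold lower in epidermis. Krt71 likewise had no count in epidermis and 11966, 13719 and 18082 CPM in anagen follicles, at least 11145-fold lower. These bounds set the group without counts at 3 counts over its summed total and cover counting error only. Ly6a (245, 165 and 256 against 8.87, 1.81 and 2.69 CPM) and Itga6 (228, 319 and 347 against 38.3, 16.3 and 6.27 CPM) were higher too, but they were sorted for and are no finding.

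**Figure D1:**
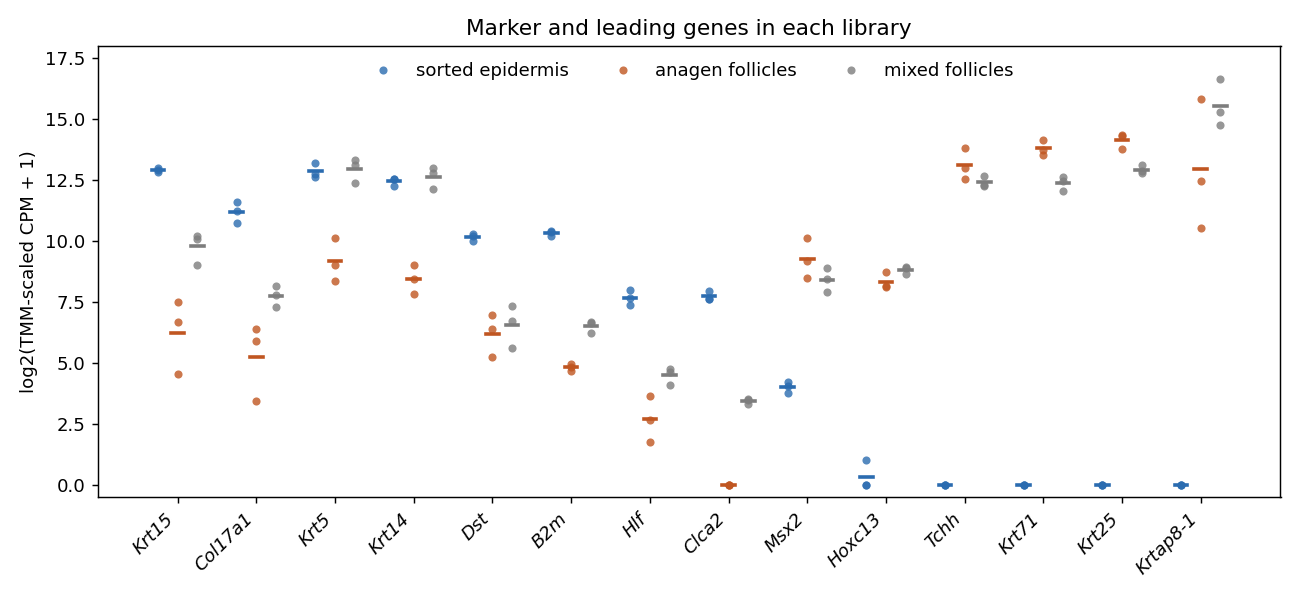
Level of 14 genes in each library, as log2 of TMM-scaled CPM plus 1. Points are libraries and short lines are group means, with sorted epidermis left, anagen follicles in the middle and mixed follicles right for each gene. The genes from Krt15 to Clca2 lay higher in every epidermis library than in every anagen library, and those from Msx2 to Krtap8-1 lay lower.

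Of 10843 genes tested with edgeR (quasi-likelihood, Benjamini-Hochberg), 3711 (34.2%) differed at an adjusted p under 0.05. Of all genes tested 14.8% were higher and 19.4% lower in epidermis, and these shares are the background for every list that follows. A list whose shares lie near them, or that holds few tested members, is only described. The count was 2769 to 3355 when 1 library was left out, and lowest without sorted epidermis replicate 2. Of the calls 43.4% were higher, against 54.1% with upper quartile scaling, which moved the median log2 fold change of all genes to 0.09 from -0.15. The 2 groups did not overlap for 52.4% of the genes tested. "Passed" below means an adjusted p under 0.05, and "higher" or "lower" refers to epidermis relative to anagen follicles.

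**Figure D2:**
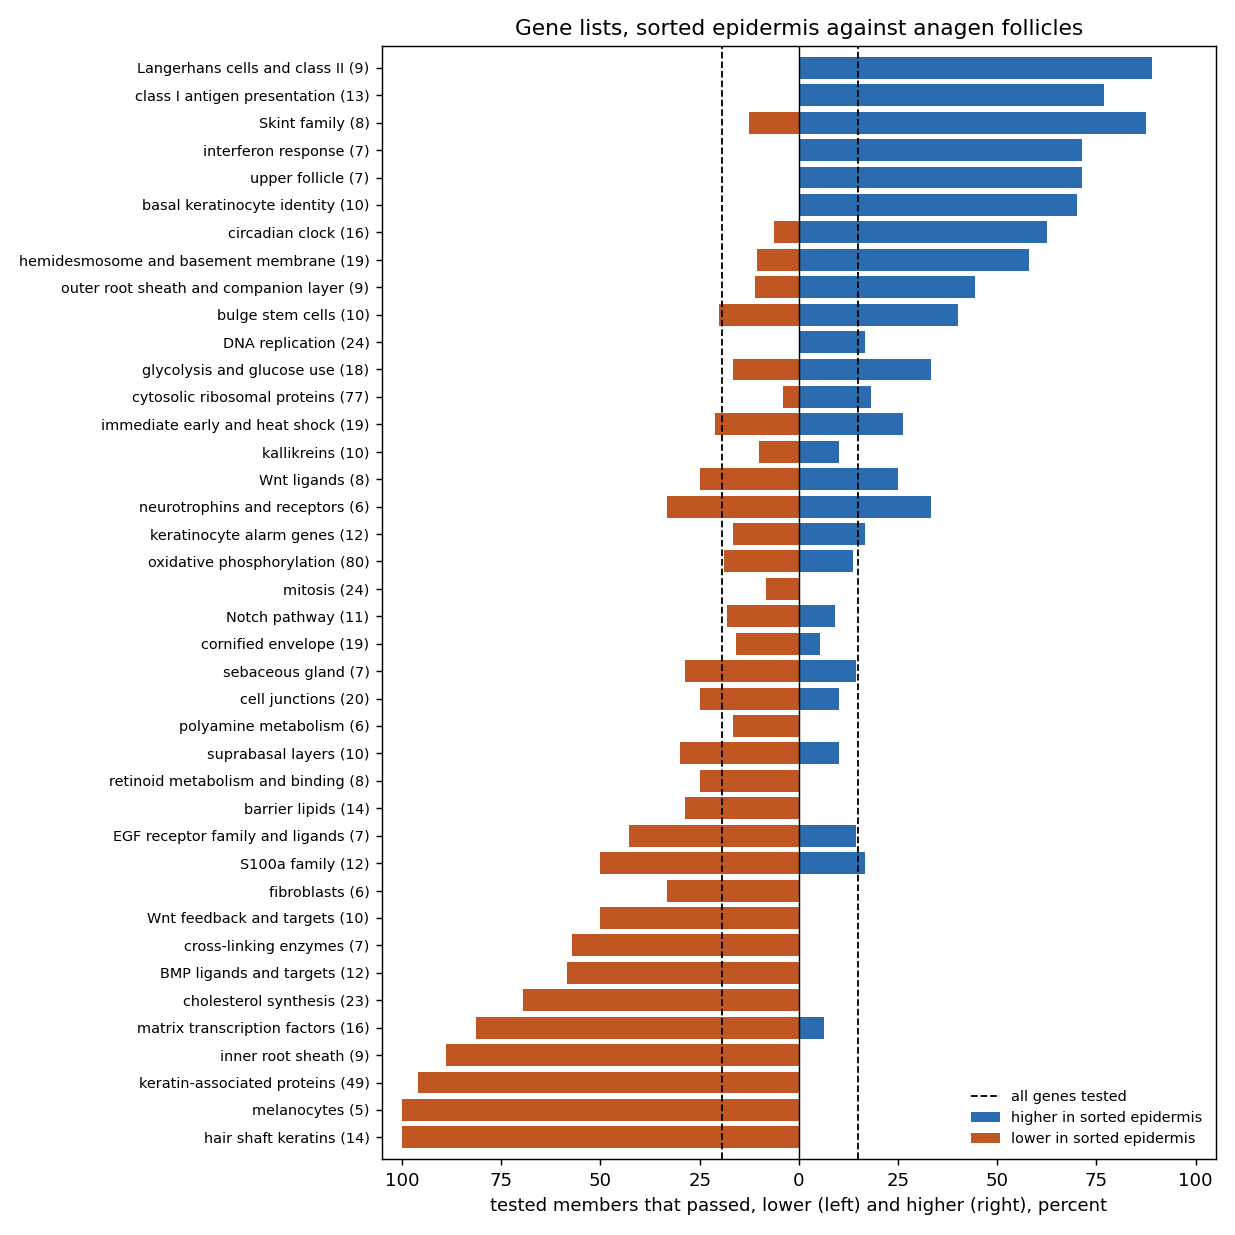
Share of tested members that passed in each gene list with at least 5 tested members (number in brackets), higher in sorted epidermis to the right and lower to the left, in percent. Dashed lines mark the shares of all genes tested, 14.8% higher and 19.4% lower. Antigen presentation, Skint, interferon, upper follicle and basal lists reach furthest to the right, and hair shaft, melanocyte, keratin-associated, inner root sheath and matrix lists furthest to the left.

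The inner root sheath list was almost wholly absent from the sorted cells. Of its 10 genes 9 were tested and 8 passed as lower, against 19.4% of all genes, with a median log2 fold change of -11.62 when genes at 0 are set to their bound. Tchh, the trichohyalin that hardens the sheath, had no count in epidermis and 5973, 8285 and 14629.9 CPM in anagen follicles, at least 7356-fold lower. Krt73 (at least 5219-fold lower) and Krt27 (at least 3145-fold lower), further keratins of the sheath, also had no count in any epidermis library. The ninth gene was Gata3, a transcription factor that the sheath shares with epidermis, at 986, 1076 and 923 against 355, 511 and 899.6 CPM (log2 fold change 0.76, adjusted p = 0.281), which did not pass. The 8 keratins of the list lie in 2 clusters, 4 on chromosome 11 between 99315516 and 99374903 and 4 on chromosome 15 between 101733949 and 101802346 (GENCODE M21, GRCm38), and the keratin of chromosome 15 that was not tested is Krt74. Of the 9 tested genes 5 are listed in none of the epidermis tables and 8 are missing from at least 1, so none of the 8 can be tested on genes that all 6 files list.

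The start regions of the strongest hair genes are printed to show an element that they share. Each sequence runs from 250 bases before the transcript's start through its first 50 bases in RefSeq (GRCm38.p6), on the gene's own strand, with TATAAA in capitals. The windows are chr11:99322902-99323201 for Krt25 and chr15:101743048-101743347 for Krt71, both of the inner root sheath. Those of 2 keratin-associated genes are chr16:88647747-88648046 for Krtap26-1 and chr16:89487903-89488202 for Krtap8-1. All 4 are on the minus strand.
Krt25: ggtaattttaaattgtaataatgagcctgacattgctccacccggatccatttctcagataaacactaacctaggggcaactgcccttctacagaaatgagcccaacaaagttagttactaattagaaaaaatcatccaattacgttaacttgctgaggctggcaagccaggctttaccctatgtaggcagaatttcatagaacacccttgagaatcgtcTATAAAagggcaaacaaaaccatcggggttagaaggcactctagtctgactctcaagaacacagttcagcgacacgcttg
Krt71: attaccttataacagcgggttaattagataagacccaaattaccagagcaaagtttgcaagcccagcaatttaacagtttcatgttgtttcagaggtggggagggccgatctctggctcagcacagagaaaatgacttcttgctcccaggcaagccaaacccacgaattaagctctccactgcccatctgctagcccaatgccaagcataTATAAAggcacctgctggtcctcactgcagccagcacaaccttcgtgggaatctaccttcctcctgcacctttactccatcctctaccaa
Krtap26-1: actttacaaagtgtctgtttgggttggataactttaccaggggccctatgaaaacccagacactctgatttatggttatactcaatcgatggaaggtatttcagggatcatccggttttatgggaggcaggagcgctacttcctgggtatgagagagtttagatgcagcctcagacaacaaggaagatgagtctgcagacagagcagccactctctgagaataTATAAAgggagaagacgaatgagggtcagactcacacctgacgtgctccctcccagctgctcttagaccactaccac
Krtap8-1: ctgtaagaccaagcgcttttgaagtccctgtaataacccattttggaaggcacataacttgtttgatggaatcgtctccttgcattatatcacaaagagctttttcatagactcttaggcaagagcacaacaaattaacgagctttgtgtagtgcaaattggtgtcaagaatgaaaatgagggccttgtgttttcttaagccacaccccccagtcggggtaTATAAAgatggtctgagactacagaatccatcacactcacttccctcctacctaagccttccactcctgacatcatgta
TATAAA, the core of the TATA box, begins 30 bases before the start of Krt25, 40 before that of Krt71, 27 before that of Krtap26-1 and 29 before that of Krtap8-1. Searched on both strands of these windows, it was present in 7 of the 8 lowered inner root sheath genes, in 6 of 9 lowered hair shaft keratins with a window and in 34 of 43 lowered keratin-associated genes. The same letters were present in 9.74% of 8284 tested genes with a window and in 15.7% of all 27025 genes with one. Clustered genes share ancestry, so these members are not independent. CTTTGA, the core bound by Lef1 and its relatives, was present in 2 of 8, 5 of 9 and 14 of 43 of the same genes, against 14.0% of tested genes. A match in a window is a description of the letters there and not a site of binding.

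The keratins and packing proteins of the hair shaft were lower in nearly every gene tested. All 14 tested hair shaft keratins of 16 passed as lower, with a bounded median of -10.55. Krt33b had no count in epidermis and 3415, 1576 and 21740.1 CPM in anagen follicles, at least 6807-fold lower. Krt85, a keratin of the early shaft, had no count in epidermis and 2443, 1038 and 9648 CPM in anagen follicles, at least 3343-fold lower. Krt31 had 1.57, 0 and 2.82 CPM in sorted epidermis, against 3413, 1928 and 15734 CPM in anagen follicles (log2 fold change -12.26, adjusted p = 5.11e-06). Krt32, a keratin of the shaft cuticle, was the member with counts in every epidermis library, at 83.3, 117 and 123 CPM in sorted epidermis, against 3204, 9478 and 14811 CPM in anagen follicles (log2 fold change -6.41, adjusted p = 2.60e-05). In each of these genes anagen replicate 3 was the highest library, and none of the epidermis libraries overlapped the follicles.

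Keratin-associated proteins were measured for all 53 genes of their list, and no count of any of them occurred in epidermis. Of 49 tested genes 47 passed as lower, with a bounded median of -10.11. Krtap26-1 had 5098, 8528 and 62163 CPM in anagen follicles (at least 19299.5-fold lower in epidermis) and Krtap8-1 5716, 1471 and 58529 CPM (at least 16734-fold lower). Krtap22-2 (1119, 441 and 31769.6 CPM), Krtap15 (463, 313 and 29562 CPM), Krtap11-1 (3218, 1785 and 24120.0 CPM) and Krtap17-1 (4261, 3448 and 17583 CPM) were highest in anagen replicate 3 as well. The list took 5.40, 2.60 and 23.2 percent of all counts in anagen replicates 1, 2 and 3. Many of these genes, and the hair keratins, are near-identical neighbours among which reads could be divided differently, so the level of 1 copy is less certain than that of the family. Of the 49 tested genes 46 are listed in no epidermis table, and none passes where all 6 files must list the gene, while 2 of the 14 hair shaft keratins do.

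Enzymes that cross-link and modify these proteins were also low. Padi3, a peptidylarginine deiminase that acts on trichohyalin, had no count in epidermis and 206, 259 and 557 CPM in anagen follicles, at least 260.3-fold lower. Tgm1, a transglutaminase, had no count in epidermis and 75.4, 98.9 and 190.0 CPM in anagen follicles, at least 92.7-fold lower. Of 7 tested genes 4 passed as lower, and these 4 are listed in no epidermis table. Tgm3, the hair and epidermal transglutaminase, had 33, 19 and 40.9 against 266, 427 and 996 CPM and did not pass in the fit of all 17 libraries (adjusted p = 0.0905) but passed as lower with adjusted p = 3.11e-04 in a fit of the 6 libraries alone. S100a3, a calcium-binding protein of the hair cuticle on which Padi3 acts, had 1.57, 0 and 0 CPM in sorted epidermis, against 6390.1, 14070.3 and 26469.5 CPM in anagen follicles (log2 fold change -14.84, SE 1.24, adjusted p = 1.09e-06). It is 1 of 14 S100a genes of chromosome 3, and its neighbours moved in both directions. S100a11 (4379.6, 2974 and 4201 against 544, 245 and 217 CPM, log2 fold change 3.52, adjusted p = 6.24e-04) and S100a10 (1057, 1302 and 1395 against 116, 59.7 and 74.4 CPM, log2 fold change 3.90, adjusted p = 2.27e-04) were higher in epidermis. Of 12 tested S100a genes 2 were higher and 6 lower.

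**Figure D3:**
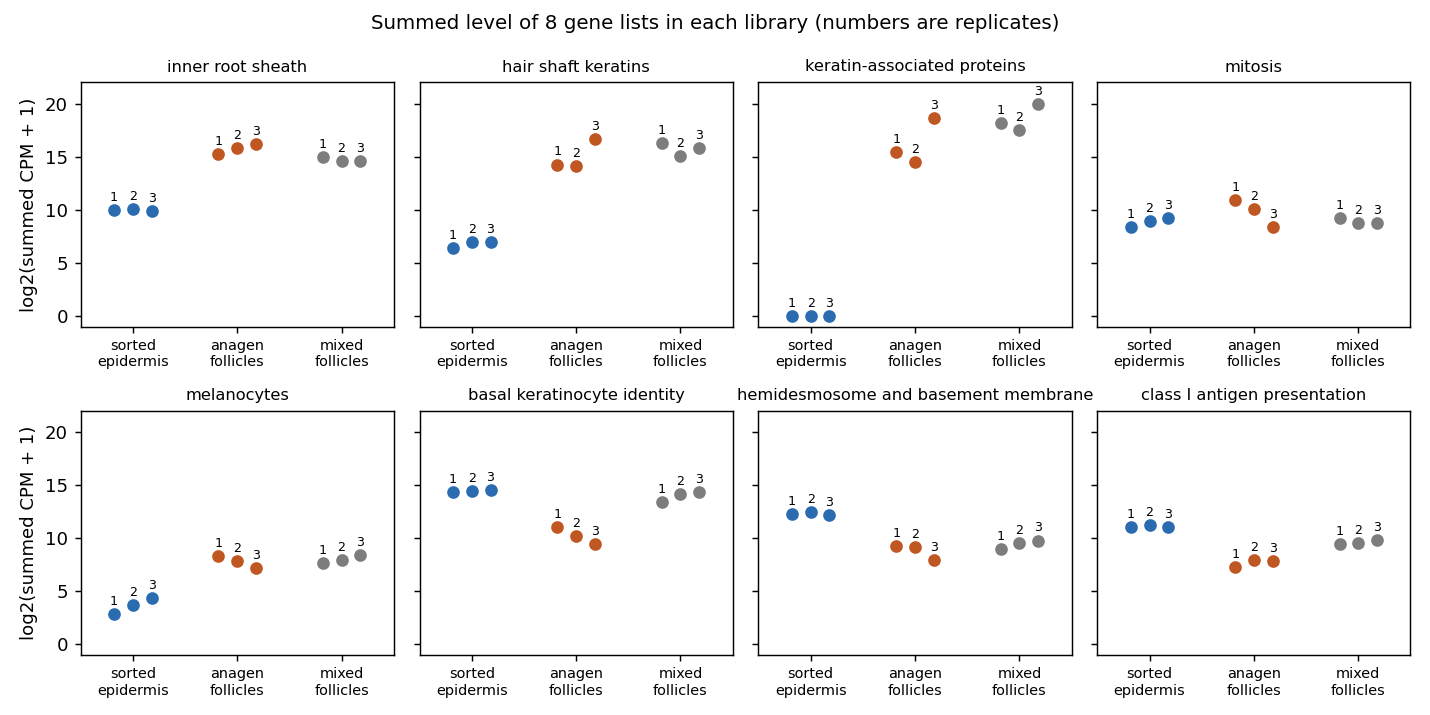
Summed level of 8 gene lists in each of the 9 tissue libraries, as log2 of summed CPM plus 1, with sorted epidermis left, anagen follicles in the middle and mixed follicles right. Numbers above points are replicates, which have no order. Anagen replicate 3 had the highest hair shaft and keratin-associated sums and the lowest mitosis, melanocyte, basal and hemidesmosome sums of its group.

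Anagen replicate 3 had more hair shaft and less mitosis and melanocyte RNA than its partners. Its summed level of keratin-associated genes was the highest of 44797, 23812 and 405918 CPM over replicates 1, 2 and 3, and so was that of hair shaft keratins, at 19619, 18188 and 105898 CPM. Its summed level of mitosis genes was the lowest of 1943, 1039.9 and 337 CPM, and that of melanocyte genes the lowest of 308, 227 and 145 CPM. Inner root sheath sums varied less, at 39629, 56216 and 72866 CPM. The CPM are scaled by TMM, which leaves out extreme genes, so a sum can exceed the list's share of the library.

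Transcription factors of the hair matrix were lower as a group. Of 16 tested genes 13 passed as lower, with a bounded median of -3.75. Msx2, a homeobox factor of the matrix, had 15.7, 18 and 12.7 CPM in sorted epidermis, against 362, 587 and 1127 CPM in anagen follicles (log2 fold change -5.47, SE 0.57, adjusted p = 5.11e-06). Hoxc13, which drives hair keratin genes, had 0, 1.06 and 0 CPM in sorted epidermis, against 288, 275 and 428 CPM in anagen follicles (log2 fold change -9.32, SE 0.69, adjusted p = 3.17e-06). Lef1, the nuclear partner of Wnt signalling in hair precursors, had 0, 0 and 1.41 CPM in sorted epidermis, against 128, 126 and 89.6 CPM in anagen follicles (log2 fold change -7.77, SE 1.49, adjusted p = 8.11e-04). All anagen libraries lay above all epidermis libraries for the 3 factors. Cux1 (70.8, 62.3 and 66.2 against 356, 374 and 341 CPM, log2 fold change -2.43, adjusted p = 2.18e-04) and Ovol1 (29.9, 15.9 and 25.4 against 212, 239 and 539 CPM, log2 fold change -3.81, adjusted p = 0.00192) also passed as lower while remaining well detected in epidermis. Foxq1, a forkhead factor of hair medulla, was the exception at 107, 173 and 131 against 28.2, 20.5 and 66.3 CPM (log2 fold change 1.86, adjusted p = 0.0167), and its call was lost without sorted epidermis replicate 2 or anagen follicle replicate 1 or 2 (adjusted p = 0.0608 to 0.0759).

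Among Wnt feedback and target genes 5 of 10 tested passed as lower and none as higher. Nkd1, an inhibitor induced by Wnt, had no count in epidermis and 31.4, 49.4 and 116 CPM in anagen follicles, at least 50.0-fold lower, and its relative Nkd2 had 0, 2.11 and 4.23 against 50.8, 125 and 126 CPM (log2 fold change -5.48, adjusted p = 8.57e-05). Axin2, the widely used Wnt reporter gene, did not pass (22, 15.9 and 21.1 against 25.8, 24.7 and 5.38 CPM, log2 fold change 0.04, adjusted p = 0.984), nor did Ccnd1 (log2 fold change -0.82, adjusted p = 0.301). Of 8 tested Wnt ligands 2 were higher and 2 lower. Wnt7b, a ligand of epidermis and follicle, had 44, 44.4 and 16.9 against 2.82, 4.82 and 1.79 CPM (log2 fold change 3.42, adjusted p = 3.72e-04), and Wnt11 had 0, 1.06 and 0 against 18.5, 21.7 and 20.6 CPM (log2 fold change -5.31, adjusted p = 1.53e-04). The call of Wnt7b was lost after thinning to equal depth (adjusted p = 0.087). Those of Wnt4 and Wnt3a were lost when single libraries were left out, that of Wnt4 without sorted epidermis replicate 2 or anagen follicle replicate 1, 2 or 3 (adjusted p = 0.0523 to 0.103) and that of Wnt3a without sorted epidermis replicate 1 or 2 or anagen follicle replicate 3 (adjusted p = 0.094 to 0.12).

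Of 12 tested BMP ligands and targets 7 were lower and none higher. Of the 12 genes 1 is listed in no epidermis table, and 6 passed as lower where all 6 files must list the gene. Bambi, a decoy receptor for BMP, had 1.57, 0 and 0 CPM in sorted epidermis, against 183, 233 and 368 CPM in anagen follicles (log2 fold change -8.95, SE 1.07, adjusted p = 1.43e-05). Id3, a direct BMP target, had 67.6, 56 and 81.7 against 158, 229.7 and 212 CPM (log2 fold change -1.55, adjusted p = 0.0053), a call lost after thinning to equal depth (adjusted p = 0.171). Bmp8a, a ligand, had no count in epidermis and 33.1, 64.5 and 61.8 CPM in anagen follicles, at least 40.6-fold lower. In the Notch list 1 gene was higher and 2 lower of 11. Of the 11 genes 1 is listed in no epidermis table, and 1 passed as lower where all 6 files must list the gene. Notch2, a receptor, had 28.3, 35.9 and 26.8 against 81.4, 118 and 235 CPM (log2 fold change -2.24, adjusted p = 0.0018), and Heyl, a target repressor, had no count in epidermis and 45.9, 135 and 102 CPM in anagen follicles, at least 72.1-fold lower. Jag2, a Notch ligand, was the higher one (44, 29.6 and 19.7 against 9.67, 3.62 and 0 CPM), a call lost without sorted epidermis replicate 1 or anagen follicle replicate 2 or 3 (adjusted p = 0.0564 to 0.0768). Shh, the morphogen of the matrix, was under the filter at 0, 0 and 0 against 4.43, 1.21 and 3.58 CPM, and Gli3 was the only Hedgehog gene of 3 tested to pass (log2 fold change -1.91, adjusted p = 0.0492), a call lost without sorted epidermis replicate 1, 2 or 3 or anagen follicle replicate 1 or 2 (adjusted p = 0.0665 to 0.359).

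Genes that attach basal cells to the basement membrane were mostly higher in epidermis. Of 19 tested hemidesmosome and basement membrane genes 11 passed as higher, against 14.8% of all genes, and 2 as lower, with a median log2 fold change of 2.36. Dst, the linker of keratin filaments to the hemidesmosome, had 1178, 1033 and 1267 CPM in sorted epidermis, against 83, 125 and 36.7 CPM in anagen follicles (log2 fold change 3.82, SE 0.60, adjusted p = 1.33e-04). Cd151, a tetraspanin bound to Itga6, had 274, 292 and 319.9 CPM in sorted epidermis, against 42.3, 38 and 26.9 CPM in anagen follicles (log2 fold change 3.04, SE 0.49, adjusted p = 1.75e-04). Lamb3 had 105, 91.9 and 88.8 against 4.03, 3.01 and 0.896 CPM (log2 fold change 5.01, adjusted p = 5.46e-05) and Lama3 118, 138 and 121 against 18.1, 9.04 and 14.3 CPM (log2 fold change 3.17, adjusted p = 3.12e-04), subunits of the laminin that Itga6 binds. Integrin Itgb1 did not pass (109, 109 and 132 against 79.4, 44 and 26 CPM, log2 fold change 1.21, adjusted p = 0.0994), but did with adjusted p = 0.0204 in a fit of the 6 libraries alone. The 2 lower genes were Nid1, a basement membrane linker with no count in epidermis and 8.46, 10.9 and 2.69 CPM in anagen follicles (at least 5.60-fold lower), and Fras1 (0, 1.06 and 2.82 against 18.5, 21.7 and 5.38 CPM), whose call was lost without sorted epidermis replicate 1 or 2 or anagen follicle replicate 1 or 2 (adjusted p = 0.0658 to 0.108). Since the cells were sorted for Itga6, a partner of several of these proteins and itself 1 of the 11, sort and tissue cannot be told apart here.

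The window of Col17a1 is printed for comparison with the hair genes, since it is the strongest hemidesmosome gene and also holds the same letters. It is chr19:47691993-47692292, on the minus strand, with TATAAA in capitals.
Col17a1: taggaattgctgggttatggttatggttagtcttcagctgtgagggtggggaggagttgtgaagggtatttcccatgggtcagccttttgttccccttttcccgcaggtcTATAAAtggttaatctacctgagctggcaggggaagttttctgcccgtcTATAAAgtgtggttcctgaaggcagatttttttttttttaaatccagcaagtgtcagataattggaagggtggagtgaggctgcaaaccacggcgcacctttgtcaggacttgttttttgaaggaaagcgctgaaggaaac
Its 2 copies begin 140 and 91 bases before the start, further away than in the 4 hair genes above. TATAAA was present in 1 of 7 higher hemidesmosome genes with a window, in 1 of 5 higher genes of basal identity, and in 0 of 10 lowered cholesterol genes. It was also present in 5 of 7 higher genes of the Skint family and 3 of 8 higher class I antigen presentation genes, both described below. The letters are thus not particular to the hair genes.

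Genes of basal identity were higher in 7 of 10 cases and lower in none, with a median of 3.66. Krt5 had 6959, 6378 and 9393 CPM in sorted epidermis, against 1118, 518 and 327 CPM in anagen follicles (log2 fold change 3.53, SE 0.61, adjusted p = 3.33e-04) and its partner Krt14 4895, 6032 and 6039 CPM in sorted epidermis, against 515, 349.6 and 229 CPM in anagen follicles (log2 fold change 3.95, SE 0.67, adjusted p = 2.67e-04). Cav1, the coat protein of caveolae, had 272, 329.7 and 392 CPM in sorted epidermis, against 12.1, 7.23 and 7.17 CPM in anagen follicles (log2 fold change 5.19, SE 0.77, adjusted p = 8.38e-05). Trp63, the master factor of stratified epithelium, passed with a smaller change (126, 86.7 and 81.7 against 50.8, 27.7 and 7.17 CPM, log2 fold change 1.74, adjusted p = 0.0126), a call lost without sorted epidermis replicate 1 (adjusted p = 0.0505). Cd44, a hyaluronan receptor, did not pass (197, 135 and 189 against 150.3, 159 and 82.4 CPM, log2 fold change 0.41, adjusted p = 0.419). In mixed follicles Krt5 (5338, 8974 and 10323 CPM) and Krt14 (4448, 7139 and 8188 CPM) were in the range of sorted epidermis, whereas Col17a1 (158, 220.4 and 289 CPM), Krt15 (523, 1201 and 1082 CPM) and Dst (48.8, 105 and 160.4 CPM) were not.

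Compartments of the follicle that keep a basal character gave calls in both directions. Of 9 outer root sheath and companion layer genes 4 were higher and 1 lower. The 4 include Krt5 and Krt14, which are also counted among the basal identity genes above. The lower gene was Krt75, the keratin of the companion layer (0, 0 and 1.41 CPM in sorted epidermis, against 68.1, 52.4 and 117 CPM in anagen follicles, log2 fold change -7.23, SE 0.81, adjusted p = 9.91e-06). Krt17, a keratin of the sheath, was higher (169.8, 159 and 323 against 66.9, 89.2 and 69.9 CPM, log2 fold change 1.52, adjusted p = 0.029), but the call was lost without sorted epidermis replicate 3 or anagen follicle replicate 1, 2 or 3 (adjusted p = 0.0521 to 0.141), and only 2 genes of this list passed as higher when any 1 anagen library was left out. Sox9, a factor of sheath and bulge, had 64.5, 79.3 and 393 against 50.4, 68.1 and 12.5 CPM and did not pass (adjusted p = 0.137, but adjusted p = 0.0376 in a fit of the 6 libraries alone), with the highest level in epidermis replicate 3. Of 10 bulge stem cell genes 4 were higher and 2 lower, the higher ones including Krt15, which is also counted among the basal identity genes. Lgr5, the receptor that marks cycling follicle stem cells, had 0, 0 and 1.41 CPM in sorted epidermis, against 55.6, 35.6 and 1.79 CPM in anagen follicles (log2 fold change -5.91, SE 1.40, adjusted p = 0.00636), and its follicle level was far lower in replicate 3. Tcf7l1 was the other lower gene (1.57, 6.34 and 7.05 against 43.9, 27.1 and 12.5 CPM), a call lost without sorted epidermis replicate 1 or anagen follicle replicate 1 (adjusted p = 0.0716 and 0.0726). Postn, a matrix protein, had 51.9, 65.5 and 64.8 against 2.42, 1.21 and 0.896 CPM (log2 fold change 5.14, adjusted p = 6.37e-04), and Cd34 did not pass (4.72, 1.06 and 7.05 against 1.61, 1.21 and 0 CPM, adjusted p = 0.445).

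Upper follicle genes were higher in sorted epidermis than in anagen follicles in 5 of 7 cases. The list summed to 421, 492 and 901 CPM in epidermis and 70.1, 36.2 and 34.9 CPM in anagen follicles. In mixed follicles it summed to 747, 1504 and 1806 CPM, in the range of epidermis or above. Sostdc1, a secreted inhibitor of Wnt and BMP, had 175, 161 and 292 CPM in sorted epidermis, against 2.02, 2.41 and 0 CPM in anagen follicles (log2 fold change 6.91, SE 0.85, adjusted p = 1.59e-05). Defb6, a beta-defensin, had 119.5, 218 and 388 CPM in sorted epidermis, against 34.3, 22.3 and 18.8 CPM in anagen follicles (log2 fold change 3.25, SE 0.82, adjusted p = 0.00543). Krt79, a keratin of the upper follicle and its ducts, had 67.6, 47.6 and 113 CPM in sorted epidermis, against 10.9, 2.41 and 5.38 CPM in anagen follicles (log2 fold change 3.53, SE 0.57, adjusted p = 1.73e-04). These genes were thus detected in cells labelled as coming from between follicles, and in mixed follicles levels were lower than in epidermis for Sostdc1 (44.8, 64.1 and 56.4 CPM) and higher in replicates 2 and 3 for Krt79 (109.9, 193 and 236 CPM). How many upper follicle cells the sort held was not tested. Of 7 sebaceous gland genes 2 were lower, the lipid enzymes Elovl3 (0, 0 and 0 against 158, 309 and 503 CPM, at least 247-fold lower) and Scd1 (115, 83.5 and 56.4 against 279.7, 462 and 386 CPM, log2 fold change -2.15, adjusted p = 3.74e-04), and Plin2 was higher (log2 fold change 1.95, adjusted p = 0.0108), a call lost without sorted epidermis replicate 3 (adjusted p = 0.0859).

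Of 10 suprabasal genes 1 was higher and 3 lower, against 3 higher and 3 lower in a fit of the 6 libraries alone. Krt10, the keratin of suprabasal epidermis, had 1009.6, 1331 and 1157 against 122, 50.0 and 32.3 CPM and did not pass in the fit of 17 libraries, which holds organoids (log2 fold change 4.09, adjusted p = 0.0859), although the groups did not overlap and the gene passed with adjusted p = 2.43e-04 in a fit of the 6 libraries alone. Calml3, a calmodulin-like protein of stratified epithelium, was lower (7.86, 14.8 and 22.5 against 533, 624 and 1083 CPM, log2 fold change -5.62, adjusted p = 0.00254), as was the desmosomal cadherin Dsc1 (14.2, 8.45 and 16.9 against 454, 635 and 674 CPM), a call lost without sorted epidermis replicate 1 or 2 (adjusted p = 0.0516 and 0.0629). Of 19 cornified envelope genes 1 was higher and 3 lower, and 2 of the 19 had no count in either group. Sprr1a, a small proline-rich envelope protein, had 4.72, 4.23 and 14.1 CPM in sorted epidermis, against 5485, 9022 and 13379 CPM in anagen follicles (log2 fold change -10.24, SE 1.64, adjusted p = 1.62e-04). Cdsn, the corneodesmosin that holds cornified cells together, had 12.6, 10.6 and 8.46 CPM in sorted epidermis, against 809, 699 and 1576 CPM in anagen follicles (log2 fold change -6.60, SE 1.49, adjusted p = 0.00236). Lor, the loricrin of epidermis, did not pass in the fit of 17 libraries (59.8, 42.3 and 49.3 against 6.05, 9.65 and 5.38 CPM, log2 fold change 2.82, adjusted p = 0.222) but did with adjusted p = 2.25e-04 in a fit of the 6 libraries alone. Flg2, a filaggrin relative, was the higher gene (28.3, 10.6 and 22.5 against 0, 0.603 and 0 CPM, log2 fold change 6.18, adjusted p = 0.00871), a call lost after thinning to equal depth (adjusted p = 0.058).

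Barrier lipid genes were lower in 4 of 14 cases and higher in none, including Smpd1, a sphingomyelinase (7.86, 7.40 and 4.23 against 47.6, 82 and 116 CPM, log2 fold change -3.62, adjusted p = 0.0112), and Sdr9c7 of the ceramide pathway (1.57, 4.23 and 0 against 46.4, 89.2 and 125 CPM, log2 fold change -5.29, adjusted p = 0.00792). Of 20 cell junction genes 2 were higher and 5 lower. Dsc3, the desmosomal cadherin of basal layers, was higher (601, 721 and 683 CPM in sorted epidermis, against 158, 86.2 and 65.4 CPM in anagen follicles, log2 fold change 2.69, SE 0.47, adjusted p = 3.46e-04). Gap junction genes went the other way, with Gjb2 at 0, 0 and 15.5 against 567, 626 and 1022 CPM (log2 fold change -7.18, adjusted p = 0.00646) and Gjb6 at 0, 1.06 and 1.41 against 97.9, 78.4 and 137 CPM (log2 fold change -6.77, adjusted p = 5.09e-04). Perp (922, 1064 and 781 against 825, 1652 and 2127 CPM, log2 fold change -0.73, adjusted p = 0.452), Pkp1 (423, 443 and 634 against 564, 618 and 1219.5 CPM, log2 fold change -0.68, adjusted p = 0.241) and Ctnnb1 (423, 554 and 451 against 615, 769 and 961 CPM, log2 fold change -0.72, adjusted p = 0.112) did not pass.

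Proliferation genes gave few calls, and the anagen libraries differed among themselves. Of 24 DNA replication genes 4 were higher, a count that was 11 without anagen replicate 1. Mcm2, a subunit of the replicative helicase, had 119.5, 99.3 and 109 CPM in sorted epidermis, against 45.5, 15.7 and 13.4 CPM in anagen follicles (log2 fold change 2.10, SE 0.47, adjusted p = 0.00228). Gins1, of the same machine, had 67.6, 134 and 109.9 CPM in sorted epidermis, against 20.6, 9.04 and 3.58 CPM in anagen follicles (log2 fold change 3.16, SE 0.76, adjusted p = 0.00372). Of 24 mitosis genes 2 were lower, 4 without anagen replicate 3 and 0 without anagen replicate 1 or any 1 epidermis library. Mki67, a protein of dividing cells, had 23.6, 38 and 49.3 against 283, 174 and 48.4 CPM (log2 fold change -2.19, adjusted p = 0.0406), and its call was lost without sorted epidermis replicate 1, 2 or 3 or anagen follicle replicate 1 or 2 (adjusted p = 0.0704 to 0.159). Top2a, a topoisomerase of dividing cells, had 58.2, 69.7 and 84.6 against 370.0, 264 and 60.9 CPM and did not pass (adjusted p = 0.178, but adjusted p = 0.0278 in a fit of the 6 libraries alone).

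Of 7 EGF family genes 3 were lower and 1 higher. Tgfa, a ligand, had 0, 0 and 1.41 CPM in sorted epidermis, against 42.3, 21.1 and 40.3 CPM in anagen follicles (log2 fold change -6.04, SE 0.83, adjusted p = 4.66e-05). Areg, another, had 1.57, 1.06 and 0 against 16.9, 28.9 and 19.7 CPM (log2 fold change -4.51, adjusted p = 0.00277), a call lost after thinning to equal depth (adjusted p = 0.0558). Epgn, epigen, was the higher ligand (34.6, 42.3 and 71.9 against 8.87, 11.5 and 25.1 CPM), a call lost without sorted epidermis replicate 3 or anagen follicle replicate 1 or 2 (adjusted p = 0.0688 to 0.0885), and the receptor Egfr did not pass (25.2, 20.1 and 19.7 against 44.3, 36.8 and 34.1 CPM, log2 fold change -0.83, adjusted p = 0.265). Among neurotrophin genes 2 of 6 were higher and 2 lower. Ngfr, the shared neurotrophin receptor, had 47.2, 60.2 and 50.7 CPM in epidermis and no count in anagen follicles, at least 92.4-fold higher. Ntf3, neurotrophin 3, had 15.7, 18 and 19.7 CPM in epidermis and no count in anagen follicles, at least 31.2-fold higher. Sort1, the sorting receptor sortilin, was lower (4.72, 12.7 and 7.05 against 66.5, 64.5 and 129.9 CPM, log2 fold change -3.35, adjusted p = 0.00322), and Bdnf was lower with a call lost without sorted epidermis replicate 1 or 3 or anagen follicle replicate 1 or 3 (adjusted p = 0.0503 to 0.0868). Ngfr and Ntf3 are not listed in the anagen tables. Of 4 FGF genes tested Fgfr3 was higher (36.2, 35.9 and 31 against 11.7, 10.2 and 8.06 CPM, log2 fold change 1.76, adjusted p = 0.00543), while the calls of Fgfr2 (higher) and Fgfr1 (lower) were lost without sorted epidermis replicate 1, 2 or 3 or anagen follicle replicate 2 or 3 (adjusted p = 0.0658 to 0.139) and without sorted epidermis replicate 1, 2 or 3 or anagen follicle replicate 1 or 2 (adjusted p = 0.0579 to 0.115).

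Class I antigen presentation genes were mostly higher in sorted epidermis. Of 13 tested class I genes 10 passed as higher and none as lower, against 14.8% of all genes, with a bounded median of 2.90. B2m, the shared light chain of class I molecules, had 1198, 1316 and 1359.9 CPM in sorted epidermis, against 24.6, 27.7 and 30.5 CPM in anagen follicles (log2 fold change 5.55, SE 0.49, adjusted p = 1.48e-06). H2-K1, a class I heavy chain, had 189, 237 and 142 CPM in sorted epidermis, against 13.3, 25.9 and 27.8 CPM in anagen follicles (log2 fold change 3.10, SE 0.43, adjusted p = 4.74e-05). Tap1, which carries peptides into the endoplasmic reticulum, had 134, 104 and 98.6 CPM in sorted epidermis, against 9.67, 15.7 and 8.06 CPM in anagen follicles (log2 fold change 3.31, SE 0.42, adjusted p = 2.30e-05). The epidermis libraries varied little for these genes and lay far above every anagen library. Nlrc5, the activator of class I genes, had 73.9, 44.4 and 46.5 CPM in epidermis and no count in anagen follicles, whose tables do not list it, at least 96.2-fold higher. Psmb8 (83.3, 90.9 and 78.9 against 0.806, 1.81 and 1.79 CPM, log2 fold change 5.85, adjusted p = 4.92e-05) and Psmb9 (25.2, 22.2 and 15.5 against 0.806, 0.603 and 0 CPM, log2 fold change 5.05, adjusted p = 2.03e-04), subunits of the immunoproteasome, rose too. H2-D1 (6.29, 16.9 and 28.2 against 6.05, 8.44 and 16.1 CPM) did not pass and was at 274, 235 and 257 CPM in mixed follicles, and the class I heavy chains are close copies, with no word in the labels on how reads were divided among them.

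The window of B2m is printed because it holds the core letters of an interferon response element, GAAANNGAAA, in capitals, 139 bases before the start. It is chr2:122147437-122147736, on the plus strand.
B2m: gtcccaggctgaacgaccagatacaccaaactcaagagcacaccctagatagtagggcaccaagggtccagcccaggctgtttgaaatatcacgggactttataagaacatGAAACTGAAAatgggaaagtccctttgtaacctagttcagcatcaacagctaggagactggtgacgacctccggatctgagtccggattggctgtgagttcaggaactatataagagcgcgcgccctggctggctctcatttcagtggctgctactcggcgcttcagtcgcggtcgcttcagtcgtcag
The letters were present on either strand in 2 of 8 higher class I genes and 2 of 3 higher interferon response genes with a window, against 3.44% of tested genes.

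Of 18 interferon response genes 7 passed the filter and 5 of those were higher, with a bounded median of 3.63. Of the 7 tested genes 2 are listed in no anagen table, and 3 passed as higher where all 6 files must list the gene. Ifitm3, an antiviral membrane protein, had 169.8, 193 and 194 CPM in sorted epidermis, against 13.7, 9.04 and 1.79 CPM in anagen follicles (log2 fold change 4.43, SE 0.87, adjusted p = 8.68e-04). Irf9, a subunit of the interferon-activated transcription factor, had 89.6, 95.1 and 73.3 CPM in sorted epidermis, against 7.66, 6.03 and 3.58 CPM in anagen follicles (log2 fold change 3.83, SE 0.36, adjusted p = 2.01e-06). Gbp2, a guanylate-binding protein, had 20.4, 20.1 and 32.4 CPM in epidermis and no count in anagen follicles, at least 42.6-fold higher. Irf1, an interferon-induced factor, did not pass (23.6, 16.9 and 28.2 against 6.85, 6.63 and 9.86 CPM, log2 fold change 1.56, adjusted p = 0.0762), but did with adjusted p = 0.0095 in a fit of the 6 libraries alone. The classical inducible genes were near 0 in both groups: Isg15 had 0, 2.11 and 0 against 1.21, 3.62 and 0.896 CPM, Ifit3 0, 0 and 2.82 against 0, 0 and 0 CPM and Oas1a no count in any of the 6 libraries.

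Class II genes were higher in epidermis too. Of 9 tested genes of the Langerhans cell and class II list 8 passed as higher. H2-Eb1, a class II chain, had 234, 209 and 121 CPM in sorted epidermis, against 4.03, 1.81 and 4.48 CPM in anagen follicles (log2 fold change 5.75, SE 0.78, adjusted p = 3.70e-05). H2-Aa had 168, 154 and 59.2 CPM in sorted epidermis, against 2.82, 0.603 and 3.58 CPM in anagen follicles (log2 fold change 5.75, SE 0.66, adjusted p = 1.21e-05), and H2-Ab1 56.6, 52.8 and 47.9 CPM in sorted epidermis, against 2.82, 0.603 and 0.896 CPM in anagen follicles (log2 fold change 4.95, SE 1.20, adjusted p = 0.00404). The summed level of the list was 538, 516 and 313 CPM in epidermis against 24.6, 32 and 25.1 CPM in anagen follicles. Cd207, the langerin that defines Langerhans cells, was detected in every epidermis library at 4.72, 8.45 and 4.23 CPM and in no anagen library, under the filter, while Lyz2 had no count in either group. Thy1, a surface protein of skin T cells among other cells, had 20.4, 47.6 and 88.8 against 4.43, 1.81 and 1.79 CPM (log2 fold change 4.15, adjusted p = 3.86e-04). Cd3g, a chain of the T cell receptor complex, had 18.9, 16.9 and 1.41 CPM in epidermis and no count in anagen follicles, at least 21.7-fold higher. All 3 tested T cell genes passed, and 1 did without epidermis replicate 1 or 2, while the call of Cd3g was lost with DESeq2 (adjusted p = 0.0688). Of these 3 genes 2 are listed in no anagen table, and 1 passed where all 6 files must list the gene. The part of such cells in the class I, class II and interferon results was not tested.

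Skint genes, a mouse family expressed in epidermis of which Skint1 is needed for skin gamma delta T cells, were higher in 7 of 8 tested cases. Of the 8 tested genes 3 are listed in no anagen table, and 4 passed as higher where all 6 files must list the gene. The higher count was 5 in a fit of the 6 libraries alone and 3 after thinning to equal depth. Skint9 had 186, 185 and 123 CPM in epidermis and no count in anagen follicles, whose tables do not list it, at least 288-fold higher. Skint10 had 70.8, 75 and 43.7 CPM in sorted epidermis, against 1.21, 0 and 0.896 CPM in anagen follicles (log2 fold change 6.26, SE 1.16, adjusted p = 5.77e-04), and Skint6 42.5, 28.5 and 22.5 CPM in sorted epidermis, against 0, 0 and 0.896 CPM in anagen follicles (log2 fold change 6.76, SE 1.01, adjusted p = 8.63e-05). Skint4 went the other way (18.9, 11.6 and 2.82 against 16.9, 41 and 68.1 CPM, log2 fold change -1.91, adjusted p = 0.0289), a call lost without sorted epidermis replicate 2 or 3 or anagen follicle replicate 2 or 3 (adjusted p = 0.0608 to 0.17). All 11 members lie in 1 cluster on chromosome 4 and are near copies, so reads could be divided among them differently.

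**Figure D4:**
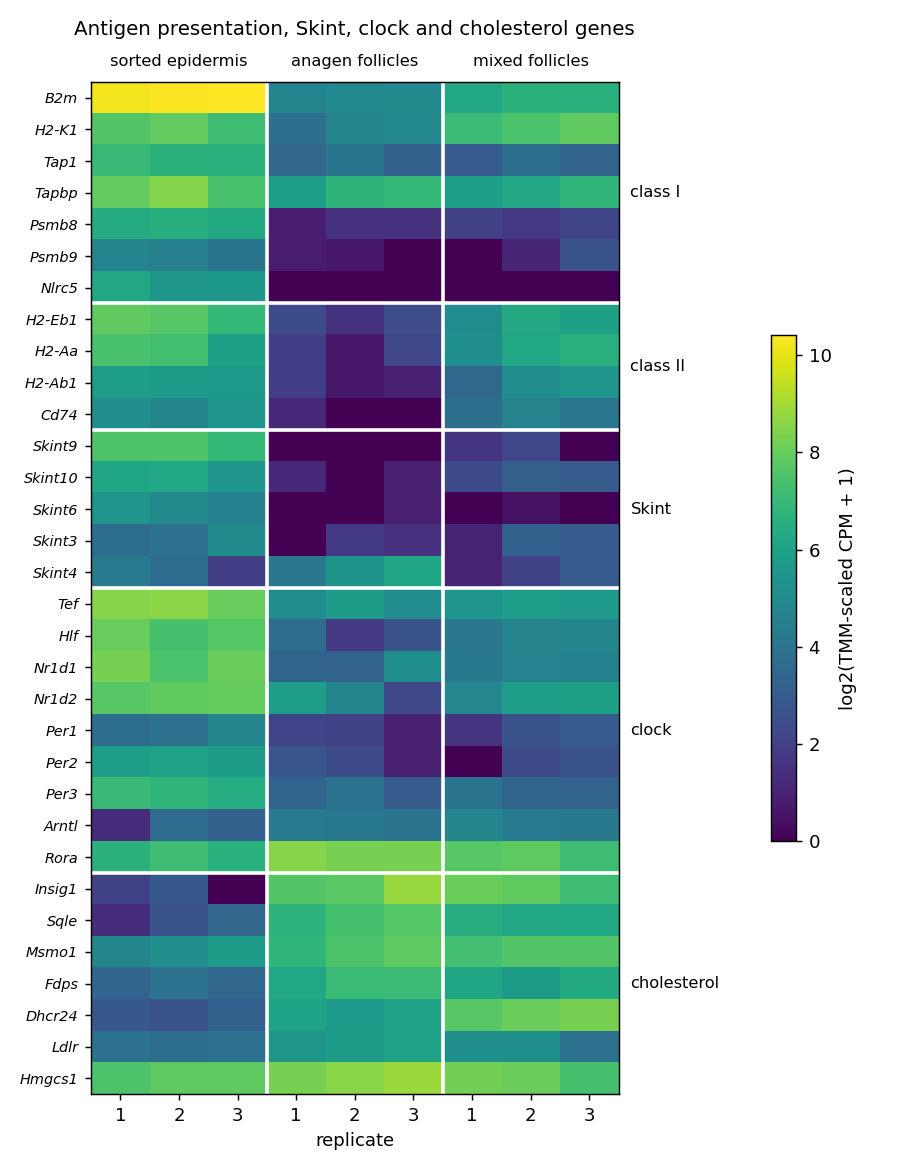
Level of 32 genes in each of the 9 tissue libraries, as log2 of CPM plus 1, with sorted epidermis left, anagen follicles in the middle and mixed follicles right. Rows are grouped as class I, class II, Skint, clock and cholesterol genes. Most rows of the first 4 blocks are brighter in all 3 epidermis libraries than in the anagen libraries, with Skint4, Arntl and Rora the other way, and the rows of the cholesterol block are darker.

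Of 12 keratinocyte alarm genes 2 were higher and 2 lower (16.7% each way), close to the 14.8% and 19.4% of all genes tested. Il33, an alarmin of the nucleus, had 59.8, 42.3 and 55 CPM in sorted epidermis, against 0.806, 0 and 2.69 CPM in anagen follicles (log2 fold change 5.60, SE 1.26, adjusted p = 0.00239), and Ccl2, a chemokine for monocytes, had 17.3, 4.23 and 21.1 CPM in epidermis and no count in anagen follicles, at least 24.9-fold higher. Il1a, the interleukin of injured keratinocytes, was lower (0, 1.06 and 0 CPM in sorted epidermis, against 26.2, 15.1 and 67.2 CPM in anagen follicles, log2 fold change -6.11, SE 1.28, adjusted p = 0.00141), as was S100a8, a call lost without sorted epidermis replicate 1 or 2 or anagen follicle replicate 3 (adjusted p = 0.0693 to 0.0946). Of 19 immediate early and heat shock genes 5 were higher and 4 lower (26.3% and 21.1%), and 3 to 4 were higher and 2 to 4 lower when single libraries were left out. Jun, an early gene, had 344, 674 and 462 against 164, 188 and 147 CPM and did not pass (adjusted p = 0.18, but adjusted p = 0.00396 in a fit of the 6 libraries alone), while Hspa1b, an inducible heat shock protein with a near-identical copy, passed as higher (307, 413 and 355 against 83, 88 and 142 CPM, log2 fold change 1.78, adjusted p = 0.0056). Btg2 was lower (7.86, 15.9 and 21.1 against 36.7, 61.5 and 87.8 CPM, log2 fold change -2.02, adjusted p = 0.0083). Among 10 tested kallikreins, proteases of the cornified layer, 1 was higher and 1 lower, Klk11 and Klk10, with calls lost without anagen follicle replicate 1 or 3 (adjusted p = 0.0631 and 0.0727) and without sorted epidermis replicate 1, 2 or 3 or anagen follicle replicate 2 (adjusted p = 0.0504 to 0.0788).

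Cholesterol synthesis genes were mostly lower in epidermis. Of 23 genes, all tested, 16 were lower and none higher, with a median log2 fold change of -2.21. Insig1, the sterol-regulated anchor of the pathway's control complex, had 3.15, 6.34 and 0 CPM in sorted epidermis, against 198, 212 and 443 CPM in anagen follicles (log2 fold change -6.36, SE 0.66, adjusted p = 5.11e-06). Sqle, squalene epoxidase, had 1.57, 5.28 and 9.86 CPM in sorted epidermis, against 104, 164 and 199.8 CPM in anagen follicles (log2 fold change -4.77, SE 0.51, adjusted p = 6.22e-06). Msmo1, a sterol oxidase, had 26.7, 34.9 and 50.7 CPM in sorted epidermis, against 116, 178 and 228 CPM in anagen follicles (log2 fold change -2.21, SE 0.50, adjusted p = 0.00243). No epidermis library reached any anagen library for these 3 genes, while Hmgcs1, a synthase of the pathway, did not pass (182, 225 and 225 against 306, 377 and 464 CPM, log2 fold change -0.86, adjusted p = 0.331). In mixed follicles Insig1 (268, 232 and 145 CPM) and Sqle (88.5, 73.2 and 72.3 CPM) were also above epidermis.

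Of 18 tested genes of glycolysis and glucose use 6 were higher and 3 lower. Aldoa, an aldolase, had 300.4, 182 and 196 CPM in sorted epidermis, against 1540.1, 1977 and 3583 CPM in anagen follicles (log2 fold change -3.39, SE 0.70, adjusted p = 0.0013), and its relative Aldoc 36.2, 22.2 and 31 CPM in sorted epidermis, against 99.2, 260.4 and 263 CPM in anagen follicles (log2 fold change -2.80, SE 0.53, adjusted p = 6.87e-04). Hk2, an inducible hexokinase, was lower (3.15, 1.06 and 9.86 against 78.2, 76 and 107 CPM, log2 fold change -4.24, adjusted p = 1.93e-05) and Hk1, the housekeeping one, higher (34.6, 44.4 and 28.2 against 7.26, 6.63 and 12.5 CPM, log2 fold change 2.05, adjusted p = 0.00747). After thinning to equal depth the call of Hk1 was lost (adjusted p = 0.22). Slc2a1, the main glucose transporter of epidermis, was higher (26.7, 31.7 and 24 against 3.22, 2.41 and 0 CPM, log2 fold change 3.64, adjusted p = 8.05e-04). Pkm (601, 417 and 571 against 403, 398 and 341 CPM, log2 fold change 0.47, adjusted p = 0.506) and Pgam1 (326, 267 and 396 against 173, 162 and 139.8 CPM, log2 fold change 1.06, adjusted p = 0.0912) did not pass, although Pgam1 did with adjusted p = 0.0121 in a fit of the 6 libraries alone. Odc1, the first enzyme of polyamine synthesis, was lower (33, 27.5 and 16.9 CPM in sorted epidermis, against 244, 235 and 143 CPM in anagen follicles, log2 fold change -3.00, SE 0.55, adjusted p = 4.98e-04), and was the 1 gene of 6 in its list to pass. Of 8 retinoid genes 2 were lower, and 1 when any single library was left out. Cyp26b1, which degrades retinoic acid, had 3.15, 1.06 and 0 CPM in sorted epidermis, against 116, 288 and 185 CPM in anagen follicles (log2 fold change -7.12, SE 0.61, adjusted p = 1.41e-06).

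Respiratory chain genes gave shares near the background. Of 80 oxidative phosphorylation genes 11 were higher (background 14.8%) and 15 lower (background 19.4%), and without anagen replicate 3 the lower count was 8. Uqcrb, a subunit of complex III, was lower (184, 278 and 175 against 593, 986 and 1470.4 CPM, log2 fold change -2.26, adjusted p = 3.66e-04), and Atp5c1, a subunit of the ATP synthase, was higher (1275, 1326 and 1466 against 388, 400.3 and 496 CPM, log2 fold change 1.66, adjusted p = 0.00213). Of 77 cytosolic ribosomal protein genes 14 were higher (18.2%) and 3 lower (3.90%), and the lower count was 0 or 1 without any 1 library other than anagen replicate 1. These counts follow the scaling, being 25 higher and 0 lower with upper quartile scaling, and 9 were higher without anagen replicate 1. Rpl4 (9262, 15122 and 19424 against 5673, 5523 and 6769.7 CPM, log2 fold change 1.29, adjusted p = 0.0742) did not pass.

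Clock genes were higher in sorted epidermis. Of 16 tested genes 10 passed as higher and 1 as lower, with a median log2 fold change of 2.45. Hlf, a rhythmic transcription factor, had 255, 164 and 202 CPM in sorted epidermis, against 11.7, 2.41 and 5.38 CPM in anagen follicles (log2 fold change 4.91, SE 0.56, adjusted p = 8.90e-06). Tef, of the same family, had 368, 387 and 255 CPM in sorted epidermis, against 32.2, 53 and 31.4 CPM in anagen follicles (log2 fold change 3.11, SE 0.46, adjusted p = 7.40e-05). Nr1d1, the repressor REV-ERB alpha, had 309.8, 174 and 261 CPM in sorted epidermis, against 9.27, 9.04 and 34.9 CPM in anagen follicles (log2 fold change 3.85, SE 0.89, adjusted p = 0.00294), and Nr1d2 206, 234 and 244 CPM in sorted epidermis, against 56, 24.7 and 3.58 CPM in anagen follicles (log2 fold change 2.98, SE 0.70, adjusted p = 0.00327). The period genes Per1 (12.6, 13.7 and 25.4 against 3.22, 3.01 and 0.896 CPM), Per2 (56.6, 61.3 and 49.3 against 5.64, 4.22 and 0.896 CPM) and Per3 (131, 112 and 87.4 against 9.27, 14.5 and 7.17 CPM) all passed (adjusted p = 0.00286, 0.00743 and 3.31e-05), and the call of Per2 was lost after thinning to equal depth (adjusted p = 0.0533). Arntl, which activates the period genes, lay below follicles without passing (1.57, 11.6 and 8.46 against 18.9, 17.5 and 15.2 CPM, log2 fold change -1.19, adjusted p = 0.0989), and Clock, its partner, passed as higher (14.2, 22.2 and 26.8 against 9.27, 12.7 and 7.17 CPM, log2 fold change 1.10, adjusted p = 0.0483), a call lost without sorted epidermis replicate 2 or 3 or anagen follicle replicate 1 or 3 (adjusted p = 0.103 to 0.165). Rora, an activator of Arntl, was the lower gene (102, 143 and 100.1 against 362, 306 and 312 CPM), a call lost without sorted epidermis replicate 1, 2 or 3 or anagen follicle replicate 1, 2 or 3 (adjusted p = 0.0511 to 0.0936). The summed level of the list was 1623, 1466 and 1429 CPM in epidermis, 609, 541 and 491 CPM in anagen follicles and 481, 553 and 483 CPM in mixed follicles. The labels give no hour of collection, so tissue and time of day cannot be told apart.

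The largest changes by the naming rule, which took the 10 largest passing changes each way among well expressed genes, led to further epidermal genes. Clca2, a calcium-activated chloride channel regulator of basal keratinocytes, had 198, 199.7 and 245 CPM in epidermis and no count in anagen follicles, at least 376-fold higher. Clca3a2, of the same family, had 621, 437 and 495 CPM in sorted epidermis, against 0.403, 0.603 and 0 CPM in anagen follicles (log2 fold change 10.13, SE 0.89, adjusted p = 1.48e-06). Ifi202b, an interferon-inducible gene, had 109, 112 and 88.8 CPM in epidermis and no count in anagen follicles, at least 181-fold higher. Wipf3 (at least 107-fold higher), Sectm1a (105), Card10 (94.8) and Ppp2r2c (86.7) likewise had no count in anagen follicles, with bounds given as folds. The remaining ones were Skint9, Nlrc5 and Ngfr. The 10 largest falls were all genes of the inner root sheath or hair shaft, namely Krtap26-1, Krtap8-1, Krt25, Krt71, Krtap22-2, Krtap15, Krtap11-1, Tchh, Krt33b and Krtap17-1.

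**Figure D5:**
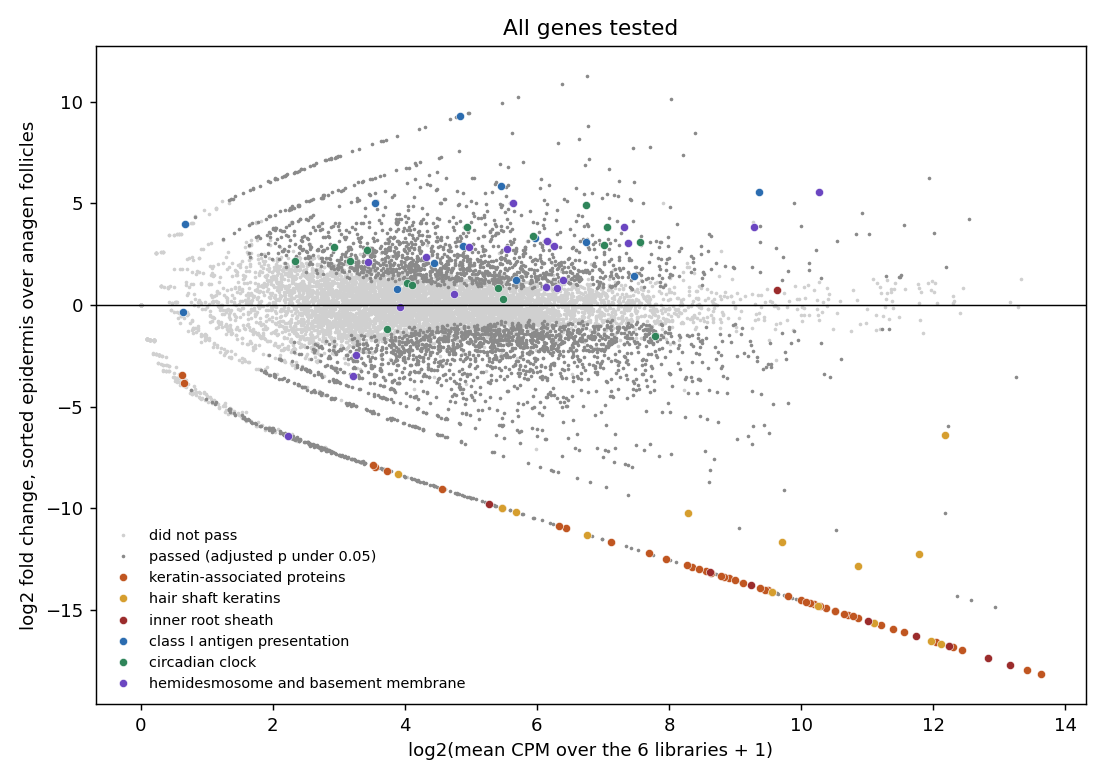
Log2 fold change of sorted epidermis over anagen follicles against the mean level of all 10843 genes tested. Grey points passed (darker) or did not pass (lighter), and coloured points are members of 6 lists. The lower edge is formed by genes with no count in epidermis, where the fitted value is set by the prior count and the level in follicles.

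Melanocyte genes, and a few genes of dermal cells, were lower in epidermis. All 5 tested melanocyte genes were lower in epidermis, and 9 further genes of the list were not tested. The list summed to 6.29, 11.6 and 19.7 CPM in epidermis against 308, 227 and 145 CPM in anagen follicles. Dct, an enzyme of pigment synthesis, had 0, 0 and 1.41 against 81, 76 and 8.06 CPM (log2 fold change -6.73, adjusted p = 8.15e-04), Pmel, the fibre of pigment granules, had no count in epidermis and 25, 22.9 and 3.58 CPM in anagen follicles (at least 13.1-fold lower), and Kit, a receptor of melanoblasts and other cells, no count in epidermis and 56.4, 33.2 and 13.4 CPM in anagen follicles (at least 26.2-fold lower). Tyr, Tyrp1 and Mlana had no count in any epidermis library, but they were under the filter and not tested. Fibroblast genes summed to 53.5, 71.9 and 101 CPM in epidermis against 489, 127 and 69 CPM in anagen follicles, and 2 of 6 passed as lower, 0 without epidermis replicate 1, 2 or 3. Fabp4, a fatty acid carrier of fat cells and vessels, had no count in epidermis and 607, 889.8 and 2116 CPM in anagen follicles, at least 920.0-fold lower. It was the only adipocyte gene tested and is listed in no epidermis table. Tagln, of smooth muscle, was lower (0, 0 and 1.41 against 51.6, 47 and 33.2 CPM, log2 fold change -6.39, adjusted p = 5.01e-05). Endothelial genes summed to 0 in every epidermis library and to 0.806, 2.41 and 5.38 CPM in anagen follicles, and red blood cell genes to at most 1.06 CPM in epidermis and 4.03, 5.43 and 3.58 CPM in anagen follicles. Rspo3, a Wnt-enhancing factor of the dermal papilla list, was higher in epidermis (28.3, 38 and 24 against 1.21, 0 and 1.79 CPM, log2 fold change 4.86, adjusted p = 5.98e-04), while the other tested genes of that list did not pass. The part of these cells in the other results was not tested.

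Mixed follicles show which of these values hold for a second follicle preparation, with the caution that both comparisons use the same 3 epidermis libraries. Of all genes tested 30.3% differed from mixed follicles, 11.9% higher and 18.5% lower in epidermis. Against mixed follicles the log2 fold change was 3.82 for B2m (adjusted p = 1.49e-05), 3.47 for Tap1 (adjusted p = 2.55e-05) and 0.08 for H2-K1 (adjusted p = 0.905). For class II it was 0.89 for H2-Aa (adjusted p = 0.193), where mixed follicles held 35.6, 74.4 and 96.9 CPM. For the clock it was 3.22 for Hlf (adjusted p = 1.99e-04) and 3.54 for Nr1d1 (adjusted p = 0.00592). For cholesterol synthesis it was -5.96 for Insig1 (adjusted p = 7.98e-06) and -3.77 for Sqle (adjusted p = 4.88e-05). Krt5 (-0.12, adjusted p = 0.902) and Tgfbi, a basal matrix protein (0.62, adjusted p = 0.401, against 5.35 with anagen follicles), did not pass against mixed follicles.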

How the data were processed

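RNA was extracted in Trizol and read by CEL-seq2 in paired ends, per the labels' protocols. The submitters' processing notes name BWA 0.6.2-r126 and the build mm10. Which counter and annotation were used, and whether molecular identifiers were collapsed, is not given in the sources used here. From each library the authors deposited 1 file of counts per gene symbol, in which no count departed from a whole number. Genes a file does not list were taken as 0 and spike-ins were left out. In all 17719 names occurred in any of the 6 files and 11477 in all 6.

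The test was edgeR's quasi-likelihood test (version 4.0.16, R 4.3.3) after TMM scaling. Genes passed filterByExpr with a minimum count of 10 and a minimum total of 15, and p-values were adjusted by Benjamini-Hochberg over all 10843. The fit held 17 libraries, namely sorted epidermis, both follicle groups and the organoids grown with forskolin and Fgf1, which share the estimate of spread. CPM are TMM-scaled. Folds against a group at 0 are bounds at 3 counts over the group's summed total (1.31 CPM in epidermis, 0.571 CPM in anagen follicles). At the filter's minimum count, counting error alone spans several fold. Coordinates are from GENCODE M21 and start regions from RefSeq, which held 604 of 808 list members.

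The members, the 48 gene lists and the rule for named genes were chosen with earlier results of these data known. The rule took the 10 largest passing changes each way at or above the median level with no overlap, the 5 most abundant members of each list, up to 3 members against a list's majority, and 15 fixed genes, of which some are left out for length. Outside the rule, and chosen after their values were seen, are Arntl, Axin2, Bmp8a, Cd207, Clock, Gjb2, Gjb6, H2-D1, Hk1, Ifit3, Isg15, Krt74, Lama3, Lamb3, Lyz2, Mlana, Oas1a, Per1, Per2, Per3, Psmb8, Psmb9, Skint1, Slc2a1, Tgfbi, Trp63, Tyr, Tyrp1 and the genes under other observations. Alternatives were RLE and upper quartile scaling, no filter, DESeq2 1.42.0, fits of the 6 or the 9 tissue libraries alone, a replicate block, counts thinned to 412582 per library, genes listed in all 6 files, leaving out 54 genes set apart from mixed follicles, a test for changes over 2-fold, and leaving out each library in turn.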

Additional observations from a re-analysis of the deposited data

How the results depend on the processing

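Of the 159 named genes that passed, 126 kept call and direction in each of the 17 alternatives in which they were tested. Of the 25 that did not pass, 13 passed in at least 1 alternative, 9 of them in the fit of the 6 libraries alone (Irf1, Itgb1, Jun, Krt10, Lor, Pgam1, Sox9, Tgm3 and Top2a) and 12 in that of the 9 tissue libraries (the same 9 with Gapdh, Hmgcs1 and Rpl4), and Ctnnb1 passed with DESeq2. The count of 3711 differing genes was 3372 to 4353 under other scalings, filters, fits and DESeq2, but 1523 (676 higher and 847 lower) after thinning to equal depth and 2117 (878 higher and 1239 lower) when changes over 2-fold were tested, both of which ask more of each gene by construction. Leaving out 1 library gave 2769 to 3355 calls, 1220 to 1438 higher and 1549 to 1917 lower. Inner root sheath, hair shaft and keratin-associated genes nearly all drop out of the test when every file must list a gene. Signs turned for 2 named genes that had not passed: Axin2 (log2 fold change -0.088 after thinning, and -0.29 to 0.34 when single libraries were left out) and H2-D1 (-0.13 after thinning), and the cause was not tested. Depth limits epidermis most, whose libraries were 0.228 to 0.486 of the depth of anagen libraries. No label ties replicate numbers across groups, so whether the numbers pair the samples is not known. Deviations of same-numbered libraries were not correlated over all genes (-0.07, -0.01 and -0.03). That cannot decide the question, since a shared effect may touch only some genes. With the replicate block 4140 genes passed, 1809 higher and 2331 lower.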

Other observations

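Further genes stood out on the epidermal side that belong to none of the lists, chosen after their values were seen. Bbox1, the last enzyme of carnitine synthesis, had 669.9, 754 and 585 CPM in sorted epidermis, against 1.21, 1.21 and 3.58 CPM in anagen follicles (log2 fold change 8.47, SE 1.09, adjusted p = 2.50e-05). Aldh3a1, an aldehyde dehydrogenase, had 330.2, 394 and 517 CPM in sorted epidermis, against 3.22, 0.603 and 0.896 CPM in anagen follicles (log2 fold change 7.80, SE 1.05, adjusted p = 3.56e-05). Il1r2, the decoy receptor for interleukin 1, had 223, 228 and 197 CPM in sorted epidermis, against 0, 0 and 1.79 CPM in anagen follicles (log2 fold change 8.79, SE 1.30, adjusted p = 8.11e-05). Oas1f, an oligoadenylate synthetase gene, had 412, 742 and 600.3 CPM in sorted epidermis, against 4.43, 1.21 and 4.48 CPM in anagen follicles (log2 fold change 7.40, SE 0.87, adjusted p = 1.21e-05), although Oas1a had no count in any of the 6 libraries. Apoe, the apolipoprotein, was among the most abundant, at 13762, 9950.0 and 10336 CPM in sorted epidermis, against 595, 666 and 553 CPM in anagen follicles (log2 fold change 4.23, SE 0.53, adjusted p = 1.79e-05). Fth1, the ferritin heavy chain, had 2115, 1632 and 1777 CPM in sorted epidermis, against 105, 42.8 and 20.6 CPM in anagen follicles (log2 fold change 5.02, SE 0.59, adjusted p = 1.12e-05), and Anxa2, the partner of S100a10 at the plasma membrane, 3563, 4524 and 3122 CPM in sorted epidermis, against 136, 139 and 211 CPM in anagen follicles (log2 fold change 4.53, SE 0.61, adjusted p = 3.58e-05). Mixed follicles lay between the groups for these 3 genes, with 1545, 3216 and 3223 CPM of Apoe, 190.3, 250.4 and 264 CPM of Fth1 and 448, 715 and 908 CPM of Anxa2.

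On the follicle side, also chosen after their values were seen, Crym, a thyroid hormone-binding protein, had no count in epidermis and 968, 1409 and 2459.7 CPM in anagen follicles, at least 1232-fold lower. Fbp1, a gluconeogenic enzyme, had no count in epidermis and 515, 1231 and 1472 CPM in anagen follicles, at least 819.5-fold lower. Slc40a1, the iron exporter ferroportin, had 1.57, 7.40 and 2.82 CPM in sorted epidermis, against 681, 374 and 1392 CPM in anagen follicles (log2 fold change -7.58, SE 1.07, adjusted p = 5.38e-05), a direction opposite to that of Fth1. Tubb3, a beta tubulin best known from neurons, had 1.57, 0 and 0 CPM in sorted epidermis, against 102, 189 and 368 CPM in anagen follicles (log2 fold change -8.70, SE 1.34, adjusted p = 1.15e-04). Mixed follicles lay above every epidermis library for these 4 genes, with 627, 509 and 673 CPM of Slc40a1 and 308, 276 and 118 CPM of Tubb3.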
